A study of Danio rerio with 30 samples.

Results

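The 3 zebrafish genes followed here across every exposure encode negative regulators of cytokine signalling: socs1a and socs3a, of the suppressor of cytokine signalling (SOCS) family, and nfkbiab, an inhibitor of the transcription factor NF-kappaB. Members were taken by symbol: every probe set whose array annotation gives one of the 3 symbols. That found 4 probe sets, 2 of them for socs1a, among 8793 genes with a single symbol on the array, and all 4 passed the filter on low values. The 3 genes were selected on measured values of the same arrays, since earlier work on these data named them for their low levels with copper (Cu 0.25 or Cu 0.6 against control, or Cu 0.25 averaged over chlorpyrifos levels). Their copper differences are therefore given as a description, with no test. Tests were kept for chlorpyrifos alone and for chlorpyrifos averaged over copper levels, which share arrays with the contrasts that chose the members.

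Olfactory tissue of one-year-old adult zebrafish of the AB strain was profiled on Affymetrix arrays after exposure to chlorpyrifos (CPF, an organophosphate insecticide), to copper (Cu, a metal toxic to olfactory neurons), to both, or to neither. There were 30 arrays in 10 groups of 3: control with neither agent, CPF at 0.1, 0.25 and 0.6 without copper, Cu at 0.1, 0.25 and 0.6 without CPF, and mixtures of CPF at 0.1, 0.25 or 0.6 with Cu at 0.25. The sources used here give neither the unit of concentration nor the time of exposure. The tissue field of the labels adds olfactory bulb and telencephalon to the rosette named elsewhere, so a change in the mix of cells and a change of RNA per cell cannot be told apart. Nothing in the labels says that the 3 arrays of a group came from independent exposures, so p-values measure only the spread between these arrays.

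Many cytokine receptors signal through Janus kinases (JAK), which phosphorylate STAT transcription factors. Among the genes that STATs switch on are those of the SOCS family, whose proteins bind the receptor or its kinase and damp the signal. NF-kappaB is held in the cytoplasm by IkappaB proteins until IkappaB kinase marks them for degradation, and NF-kappaB in turn induces the genes of IkappaB alpha, of which nfkbiaa and nfkbiab are the zebrafish copies. Transcripts of both kinds of inhibitor are widely used as readouts of recent cytokine or NF-kappaB activity.

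The median log2 value per array was 5.53 to 5.63, and arrays correlated with each other at 0.962 to 0.993. Among them, 4 arrays (CPF 0.25 replicates 1 and 3, Cu 0.25 replicate 3 and CPF 0.6 replicate 2) were named in earlier work on these data for high liver or pancreas transcripts. Their summed level of 5 measured exocrine pancreas genes was 10.25, 9.56, 9.54 and 8.71, against 6.72 to 8.37 in the other arrays. Sample titles place the arrays in 3 title batches of 12, 13 and 5, and none of the Cu 0.6 arrays belonged to title batch 1. Several results that rest on these arrays or batches are given with and without them. The calls of liver markers are given only with them.

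The gene socs1a encodes an inhibitor that binds JAK kinases directly. Its control arrays read 9.32, 9.32 and 9.28 on the log2 scale, the narrowest of its groups. With copper alone the arrays read 7.77, 8.94 and 8.28 at Cu 0.1, then 8.04, 7.35 and 7.94 at Cu 0.25, and 6.67, 5.41 and 6.25 at Cu 0.6. Every array with copper alone lay below every control array, and the 3 arrays at Cu 0.6 lay below all 27 others, the lowest of which read 7.35. The fitted difference from control was −1.03 ± 0.41 (SE) at Cu 0.1, −1.53 ± 0.40 at Cu 0.25 and −3.19 ± 0.40 at Cu 0.6, a level 9.11 times lower at the last. The second probe set gave −1.29 ± 0.45, −1.69 ± 0.43 and −3.65 ± 0.44, and the pair correlated at r = 0.99 over the 30 arrays after removal of the batch terms.

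The gene socs3a encodes a SOCS3 protein. In mammals SOCS3 is the main brake on signalling through gp130, the receptor subunit shared by the interleukin-6 family, and on STAT3. The control arrays of socs3a read 12.16, 11.74 and 11.91. With copper alone the arrays read 10.81, 11.65 and 10.80 at Cu 0.1, then 11.00, 9.96 and 10.75 at Cu 0.25, and 10.04, 8.88 and 9.62 at Cu 0.6. Again no array with copper alone reached the lowest control, but Cu 0.6 and Cu 0.25 overlapped. The fitted difference was −0.86 ± 0.35, −1.37 ± 0.34 and −2.40 ± 0.34 at the rising concentrations, with the level 5.3 times lower at Cu 0.6.

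The gene nfkbiab encodes an IkappaB alpha protein. Its control arrays read 11.31, 10.83 and 10.87. With copper alone the arrays read 9.85, 10.19 and 10.34 at Cu 0.1, then 9.97, 9.61 and 9.55 at Cu 0.25, and 9.76, 9.35 and 9.40 at Cu 0.6. All 9 lay below the controls, and neighbouring concentrations overlapped. The fitted difference was −0.89 ± 0.26, −1.29 ± 0.25 and −1.52 ± 0.26, with the level 2.86 times lower at Cu 0.6. Between Cu 0.25 and Cu 0.6 the difference was −0.23 ± 0.26 for nfkbiab, −1.04 ± 0.34 for socs3a and −1.66 ± 0.40 for socs1a. These values come from arrays that chose the members, and the difference between the genes was not tested.

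**Figure D1:**
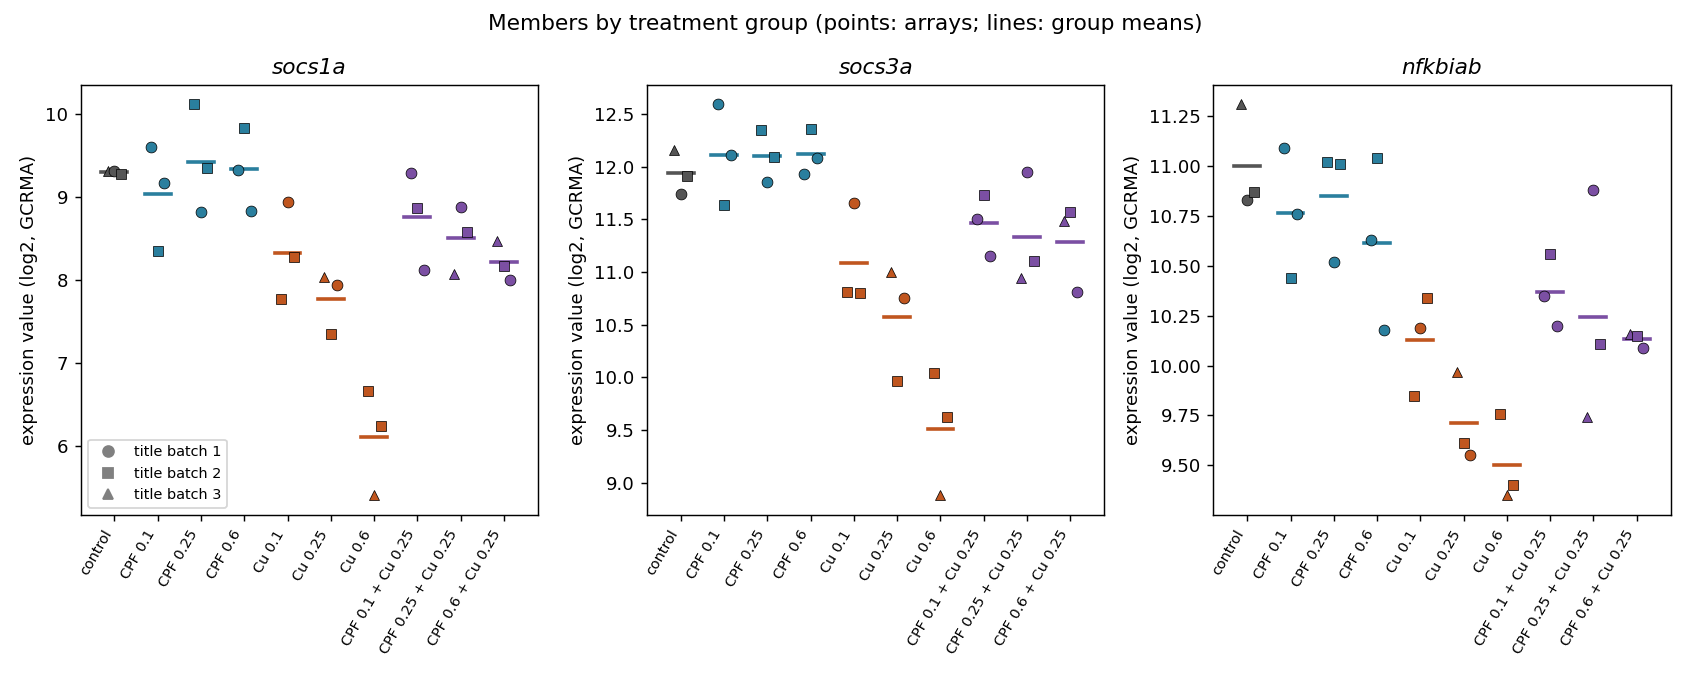
Log2 GCRMA expression value (vertical axis) of socs1a, socs3a and nfkbiab in each of the 30 arrays, by treatment group (horizontal axis). Points are arrays, with the shape giving the title batch, and lines are group means. The 9 arrays with copper alone lie below the control arrays for each gene, and socs1a at Cu 0.6 (highest array 6.67) lies below all other arrays.

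Over all probe sets tested, limma called 0% at Cu 0.1 (1136 of 10531 had an unadjusted p under 0.05), 0.351% at Cu 0.25, 1.62% at Cu 0.6 and 0.038% between Cu 0.6 and Cu 0.25 (adjusted p under 0.05, Benjamini-Hochberg). Since these contrasts chose the members, nothing is read from that background here. Without title batch 3 the socs3a difference was −1.94 between Cu 0.6 and control and −0.47 between Cu 0.6 and Cu 0.25. For socs1a, leaving out 1 array at a time gave −3.45 to −2.79 at Cu 0.6, and for nfkbiab −1.64 to −1.32.

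The mixtures give the levels of the 3 genes with copper and CPF together. The mixture arrays of socs1a read 9.29, 8.87 and 8.13 with CPF 0.1, then 8.08, 8.88 and 8.58 with CPF 0.25, and 8.48, 8.17 and 8.0 with CPF 0.6. Those of socs3a read 11.50, 11.73 and 11.15, then 10.94, 11.95 and 11.10, and 11.48, 11.57 and 10.81. Those of nfkbiab read 10.35, 10.56 and 10.20, then 9.74, 10.88 and 10.11, and 10.16, 10.15 and 10.09. For each gene 8 of the 9 mixture arrays lay below the lowest control array.

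Against the same CPF level without copper, socs1a differed by −0.28 ± 0.40, −0.86 ± 0.41 and −1.05 ± 0.41 at CPF 0.1, 0.25 and 0.6. The corresponding values were −0.66 ± 0.34, −0.76 ± 0.35 and −0.81 ± 0.35 for socs3a and −0.39 ± 0.25, −0.59 ± 0.26 and −0.49 ± 0.26 for nfkbiab. At CPF 0.1 the socs1a difference was smaller than its error, and it turned to 0.05 without replicate 3 of that mixture and to 0.01 without CPF 0.1 replicate 1. The values at CPF 0.25 and 0.6 leaned on the arrays high in liver or pancreas genes, which left CPF 0.25 with a single array when removed. Without them socs1a differed by −0.07 and −0.63, socs3a by −0.41 and −0.61, and nfkbiab by −0.17 and −0.17.

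Averaged over the 4 CPF levels, the fitted difference with Cu 0.25 was −0.93 ± 0.20 for socs1a, −0.90 ± 0.17 for socs3a and −0.69 ± 0.13 for nfkbiab, where limma called 4.35% of all probe sets. Within title batch 1 the values were −0.77, −0.78 and −0.47, and within title batch 2 they were −1.06, −0.94 and −0.73. When the 4 arrays high in liver or pancreas genes were left out, they were −0.62, −0.77 and −0.47. The 18 copper arrays ran from 5.41 through a median of 8.10 to 9.29 for socs1a, against 8.35, 9.32 and 10.12 in the 12 arrays without copper. Of those 18 arrays, 12 lay below every array without copper for socs1a, 15 for socs3a and 12 for nfkbiab.

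**Figure D2:**
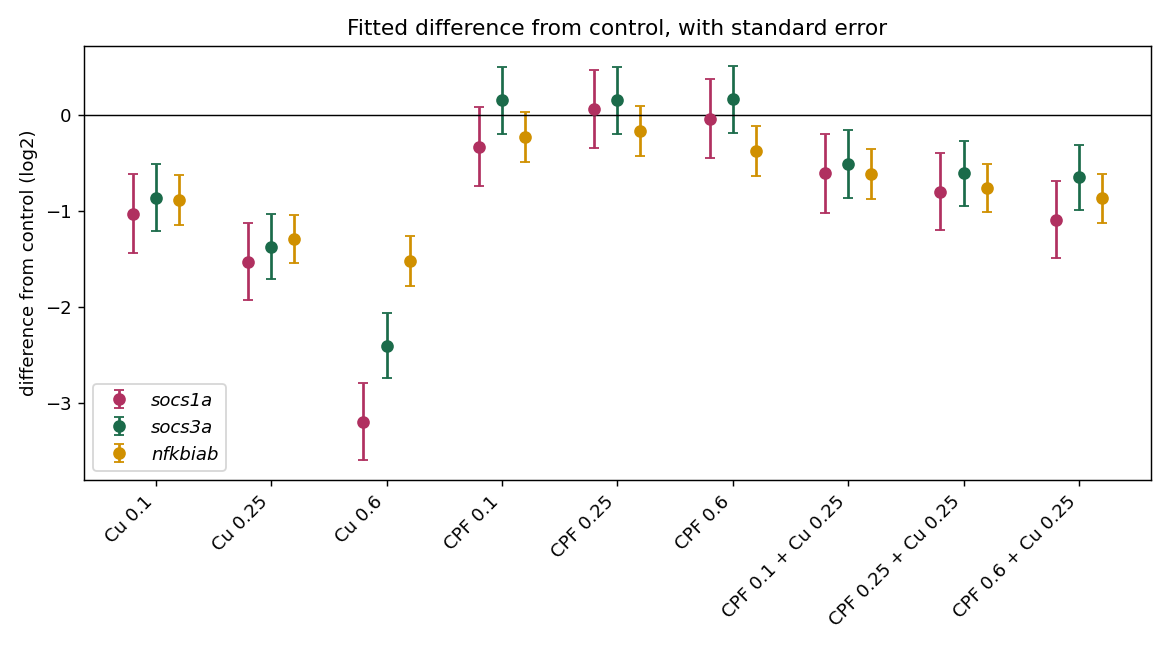
Fitted log2 difference from control (vertical axis) for socs1a, socs3a and nfkbiab in each of the 9 exposed groups (horizontal axis), with standard errors as bars. The 3 CPF groups lie near 0 (−0.38 to 0.16), the mixtures between −1.09 and −0.51, and Cu 0.6 lowest.

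CPF alone against control was not itself a contrast used to choose the 3 inhibitors. These comparisons do share the control arrays with the copper ones, and the CPF arrays entered the copper contrast averaged over CPF levels. They are thus not independent of the choice of members. A choice for low copper levels against control favours a difference below 0 here. The 9 CPF arrays ran from 8.35 through 9.33 to 10.12 for socs1a, from 11.64 through 12.09 to 12.59 for socs3a and from 10.18 through 10.76 to 11.09 for nfkbiab. For each gene these ranges overlapped the controls. No CPF level passed the test for any of the 3 genes. The difference from control at CPF 0.1, 0.25 and 0.6 was −0.33, 0.06 and −0.04 for socs1a, with limma adjusted p of 0.892, 0.986 and 0.986. It was 0.15, 0.15 and 0.16 for socs3a (limma adjusted p 0.945, 0.964 and 0.927), and −0.23, −0.17 and −0.38 for nfkbiab (limma adjusted p 0.884, 0.943 and 0.723).

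The mean of the 3 CPF groups differed from control by −0.10 for socs1a (95% interval −0.80 to 0.60), by 0.15 for socs3a (−0.44 to 0.75) and by −0.26 for nfkbiab (−0.70 to 0.19). These intervals do not show that CPF left the genes as they were. Without the arrays high in liver or pancreas genes the means differed by −0.53, −0.04 and −0.53, and the lowest limma adjusted p of this contrast over all alternatives was 0.803, 0.527 and 0.558. Over all probe sets limma called 0% at CPF 0.1 (723 with an unadjusted p under 0.05), 0% at CPF 0.25 (609), 0.0095% at CPF 0.6 and 0.019% for the mean of the 3 levels.

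The mixtures were next set against Cu 0.25 alone. The Cu 0.25 arrays are shared by these comparisons, and the choice of members for low levels with copper can favour a difference above 0. The values of the 3 genes here are therefore a description, with no test. No effect of CPF is concluded from them. Of the 9 mixture arrays, 8 lay above all 3 Cu 0.25 arrays for socs1a, 7 for socs3a and 8 for nfkbiab. The difference at CPF 0.1, 0.25 and 0.6 was 0.92, 0.74 and 0.44 for socs1a, 0.86, 0.76 and 0.71 for socs3a, and 0.67, 0.53 and 0.42 for nfkbiab. Over all probe sets the share called was 0% with CPF 0.1 (552 with an unadjusted p under 0.05), 0% with CPF 0.25 (596) and 0.0095% with CPF 0.6.

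The mean of the 3 mixtures lay above Cu 0.25 by 0.70 ± 0.33 for socs1a, by 0.78 ± 0.28 for socs3a and by 0.54 ± 0.21 for nfkbiab, again with no test. This contrast was added after seeing the data, and limma called 0.019% of all probe sets in it. No interval or adjusted p is given for the members, since neither would allow for their choice. The size rested on single arrays. Without Cu 0.25 replicate 2 it was 0.43 for socs1a and 0.43 for socs3a, and with any 1 array left out it ran up to 0.93 and 1.05. By level, that same array took socs1a to 0.64, 0.47 and 0.17 and socs3a to 0.50, 0.42 and 0.38 at CPF 0.1, 0.25 and 0.6. The nfkbiab value at CPF 0.25 was 0.15 without replicate 2 of that mixture, and its mean over the mixtures ran from 0.43 to 0.70.

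An F-test over the CPF levels averaged over copper gave limma adjusted p of 0.989 for socs1a, 0.985 for socs3a and 0.986 for nfkbiab, with 0.0285% of probe sets called. It shares the control and Cu 0.25 arrays with the contrasts that chose the members, and it does not show that CPF left the genes as they were. The F-test of the interaction asks whether the copper difference changes with CPF. It contains the difference between Cu 0.25 and control, a contrast used to choose the members. The interaction test is therefore not given for socs1a, socs3a or nfkbiab, and nothing is concluded from it for them. Over all probe sets it called 0%, while 386 had an unadjusted p under 0.05.

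The 3 genes moved together from array to array. Over 30 arrays with batch terms removed, Pearson's r was 0.95 between socs1a and socs3a, 0.88 between socs1a and nfkbiab and 0.89 between socs3a and nfkbiab. After group means were removed as well, r was 0.82, 0.72 and 0.70, and over the 12 arrays without copper it was 0.76, 0.77 and 0.62. The genes share arrays and so any quality of an array, and these values are a description.

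Among 6448 genes, the 5 most like each member by r over the 30 arrays gave a single short list. Beside the members it held cebpd, a transcription factor of the acute-phase response (r = 0.89 with socs1a, 0.95 with socs3a and 0.91 with nfkbiab), and btg2, an antiproliferative gene (0.82 with socs1a and 0.90 with nfkbiab). It also held gadd45ba, a growth arrest and DNA damage gene (0.83 with socs1a and 0.86 with socs3a), and ccng2, which encodes cyclin G2 (0.85 with socs3a and 0.87 with nfkbiab). Without the Cu 0.6 arrays, r with cebpd was 0.84, 0.93 and 0.88. For btg2 it was then 0.82 with socs1a and 0.89 with nfkbiab. For gadd45ba it was 0.78 with socs1a and 0.84 with socs3a, and for ccng2 0.75 with socs3a and 0.84 with nfkbiab. Below the first 5, the olfactory sensory neuron markers s100z and ompb stood among the 12 genes most like socs1a (r = 0.79 for each). For socs3a s100z did so too (r = 0.79), and for nfkbiab neither did. Without the Cu 0.6 arrays r was 0.63 for both with socs1a and 0.65 for s100z with socs3a. At Cu 0.6 the difference from control was −1.22 ± 0.22 for cebpd, −1.12 ± 0.17 for gadd45ba, −1.11 ± 0.26 for btg2 and −0.78 ± 0.24 for ccng2, each smaller than that of any member. For the last 3, chosen for their likeness, this is a description. The cebpd gene is also on a pathway list and is tested there. Since it runs close to members chosen on copper, that test is not independent of their choice.

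**Figure D3:**
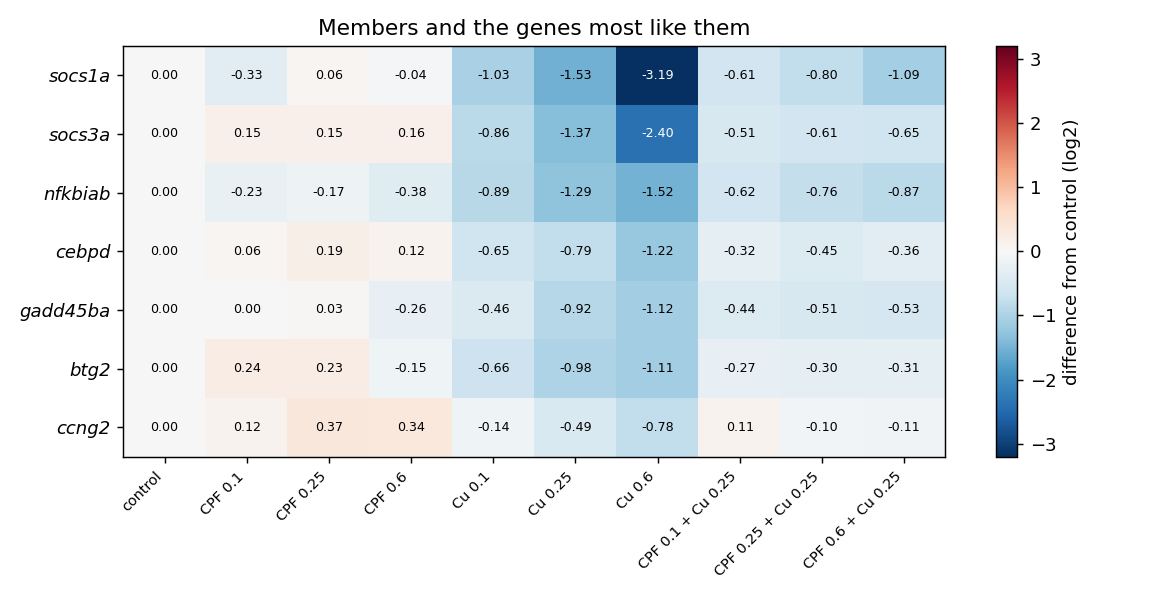
Batch-adjusted log2 difference from control (colour and printed value) of the 3 members and the 4 other genes most like them (rows) in each group (columns). Cu 0.6 is the lowest column for each gene, from −3.19 for socs1a to −0.78 for ccng2, and the mixtures lie between CPF alone and Cu 0.25 alone.

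The rest of the pathway was read from lists of 228 genes, of which 90 were on the array and 70, without the members, passed the filter. At Cu 0.6, 6 of the 70 fell and 0 rose (8.57%, beside 1.62% of all probe sets), with a list median of 0.00 against 0.05 over all. For averaged Cu 0.25, 3 rose and 2 fell (7.14%, beside 4.35%), with medians of −0.01 and 0.02. At Cu 0.1 limma called 0 of the 70 (1 higher and 6 lower at an unadjusted p under 0.05), and at Cu 0.25 alone it called 0 (2 higher and 8 lower). For the mean of the mixtures against Cu 0.25 it called 0 (8 higher and 5 lower at an unadjusted p under 0.05), and for the mean of CPF alone against control 0 (5 higher and 0 lower).

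Upstream of the inhibitors limma called no gene in any copper comparison, where the share over all probe sets (at most 4.35%) is itself low, so little is read from this count. It covers only 3 cytokine ligands measured of 35 listed, 5 receptors of 45 and 4 JAK and STAT genes of 16. It also covers 2 NF-kappaB subunits of 5 and 14 of 32 kinases and adaptors that activate NF-kappaB. The ligands were cxcl12a, cxcl12b and tnfsf10l, and stat3 was the only STAT gene measured. At Cu 0.6, 1 ligand gene and 1 subunit gene were lower, and 2 kinase or adaptor genes higher, at an unadjusted p under 0.05. The STAT3 gene stat3, whose mammalian counterpart induces SOCS3, differed by −0.04 ± 0.31 (limma adjusted p = 0.973). The subunit gene nfkb2 differed by −0.90 ± 0.31 (limma adjusted p = 0.145), and cxcl12a, a chemokine, by −0.46 ± 0.17 (limma adjusted p = 0.186).

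Among the 11 other measured JAK-STAT inhibitors, 2 fell at Cu 0.6, and both were genes of CISH, a SOCS family protein induced by STAT5 in mammals. The cisha arrays read 7.61, 7.30 and 7.19 in controls, 7.99, 7.65 and 7.56 at Cu 0.25 and 6.02, 5.69 and 6.0 at Cu 0.6. The Cu 0.6 arrays lay below both other groups, and those at Cu 0.25 overlapped the controls. The difference from control was −1.45 ± 0.27 at Cu 0.6 (limma adjusted p = 0.00511) and 0.36 ± 0.27 at Cu 0.25 (limma adjusted p = 0.691).

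Its paralogue cishb read 5.63, 5.97 and 5.61 in controls, 6.47, 5.95 and 6.0 at Cu 0.25 and 4.54, 4.96 and 5.09 at Cu 0.6. The difference at Cu 0.6 was −0.87 ± 0.21 (limma adjusted p = 0.0409), again with no array of Cu 0.6 reaching a control. The 2 copper concentrations differed from each other by −1.81 ± 0.27 for cisha (limma adjusted p = 0.013) and by −1.27 ± 0.21 for cishb (limma adjusted p = 0.0218), a contrast added after seeing the data. Without title batch 3 the adjusted limma p of that contrast was 0.202 for cisha and 0.279 for cishb. Both genes were thus lower at Cu 0.6 than at Cu 0.25, where socs1a, socs3a and nfkbiab already lay below the controls.

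The paralogue socs3b did not pass at Cu 0.6, at −0.90 ± 0.69 (limma adjusted p = 0.584). The other 8 members of that list, which were pias2, pias4a, ptpn6, ptpn11a, ptpn11b, ptpn1, ptpn2a and ptpn2b, lay between −0.12 and 0.37. PIAS proteins restrain STATs in the nucleus, and the PTPN genes encode tyrosine phosphatases.

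Of the 6 other NF-kappaB inhibitors measured, the second IkappaB alpha gene nfkbiaa fell at Cu 0.6. Its arrays read 9.06, 8.77 and 8.72 in controls, 8.43, 8.02 and 8.01 at Cu 0.25 and 7.62, 7.50 and 8.18 at Cu 0.6. All copper arrays named lay below the controls, and the difference at Cu 0.6 was −1.10 ± 0.26 (limma adjusted p = 0.0284). It did not pass at Cu 0.25 alone, at −0.70 ± 0.25 (limma adjusted p = 0.277). Nor did it pass for averaged Cu 0.25, at −0.31 ± 0.13 (limma adjusted p = 0.197). The IkappaB beta gene nfkbib rose for averaged Cu 0.25, by 0.28 ± 0.05 (limma adjusted p = 0.00317), but not for Cu 0.25 alone against control, at −0.07 ± 0.11 (limma adjusted p = 0.895). Its arrays read 9.17, 9.18 and 9.41 in controls and 9.18, 9.14 and 9.25 at Cu 0.25, and the 9 mixture arrays lay between 9.27 and 9.75. The 9 arrays with CPF alone, which the averaged contrast subtracts as well, lay between 8.90 and 9.40. Their mean differed from control by −0.18 ± 0.09 (limma adjusted p = 0.551). The remaining 4, nfkbiz, otulina, otulinb and tollip, lay between −0.17 and 0.22 at Cu 0.6, and none was called.

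Of 25 genes that cytokine or NF-kappaB signalling induces, 3 fell at Cu 0.6. These were cebpd (limma adjusted p = 0.00439), the survival gene mcl1b at −0.84 ± 0.19 (limma adjusted p = 0.0237) and the chemokine gene ccl19a.1 at −1.15 ± 0.26 (limma adjusted p = 0.0264). The cebpd calls, here and in the counts above, are not independent of the choice of members, whose levels cebpd follows. The same limit holds for the calls of nfkbiaa and pim1. Over the 30 arrays nfkbiaa had r = 0.82 with socs1a, 0.83 with socs3a and 0.81 with nfkbiab, and pim1 had r = 0.81 with socs3a. For averaged Cu 0.25, cebpd fell by −0.57 ± 0.11 (limma adjusted p = 0.00387) and the kinase gene pim1 by −0.41 ± 0.07 (limma adjusted p = 0.0013). The pim1 arrays read 10.79 to 11.02 in controls and 10.23 to 10.57 at Cu 0.25. They read 10.70 to 11.14 in the mixtures and 11.03 to 11.51 with CPF alone, which the averaged contrast subtracts as well. For averaged Cu 0.25, ccnd1, which encodes cyclin D1, rose by 0.51 ± 0.11 (limma adjusted p = 0.00995) and isg15, an interferon-induced ubiquitin-like protein, by 0.94 ± 0.26 (limma adjusted p = 0.0365). The isg15 arrays read 7.05 to 7.26 in controls, 7.30 to 8.29 at Cu 0.25 and 6.12 to 7.76 with CPF alone. At Cu 0.6 they read 5.79 to 8.86. In the mixtures they read 7.56 to 8.89 with CPF 0.1 or 0.25 and 7.15 to 7.59 with CPF 0.6. The list held other inducible genes with no call at Cu 0.6, among them mmp9 at 0.12 ± 0.40 and junbb at −0.27 ± 0.24.

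The calls among these genes rest on few arrays. Without title batch 3, which takes away 1 array each of control and Cu 0.6, none of the 6 calls at Cu 0.6 passed, with differences of −1.19 for cisha, −0.97 for cishb, −0.86 for nfkbiaa, −0.92 for cebpd, −0.78 for mcl1b and −1.07 for ccl19a.1. Single arrays whose loss changed that count of 6 most were control replicate 1 and Cu 0.6 replicate 2 (0 left), control replicate 3 and Cu 0.6 replicate 1 (2 left) and control replicate 2 (3 left). When the 4 arrays high in liver or pancreas genes were left out, 2 genes were called for averaged copper in place of 5, and the limma adjusted p was 0.072 for cebpd, 0.0672 for pim1 and 0.0691 for isg15. Without title batch 3 it was 0.0872 for ccnd1 and 0.117 for isg15. The cishb call also ended without those 4 arrays (limma adjusted p 0.0524 against control and 0.0674 against Cu 0.25) and, against control, with no filter (0.0511). With the title batch as a random block the limma adjusted p was 0.0513 for ccl19a.1 at Cu 0.6 and 0.0802 for isg15, and isg15 stood at 0.0714 with no batch term and 0.055 with no filter. The isg15 call held in 13 of the 30 fits that left out 1 array, and the nfkbib call in all 30.

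**Figure D4:**
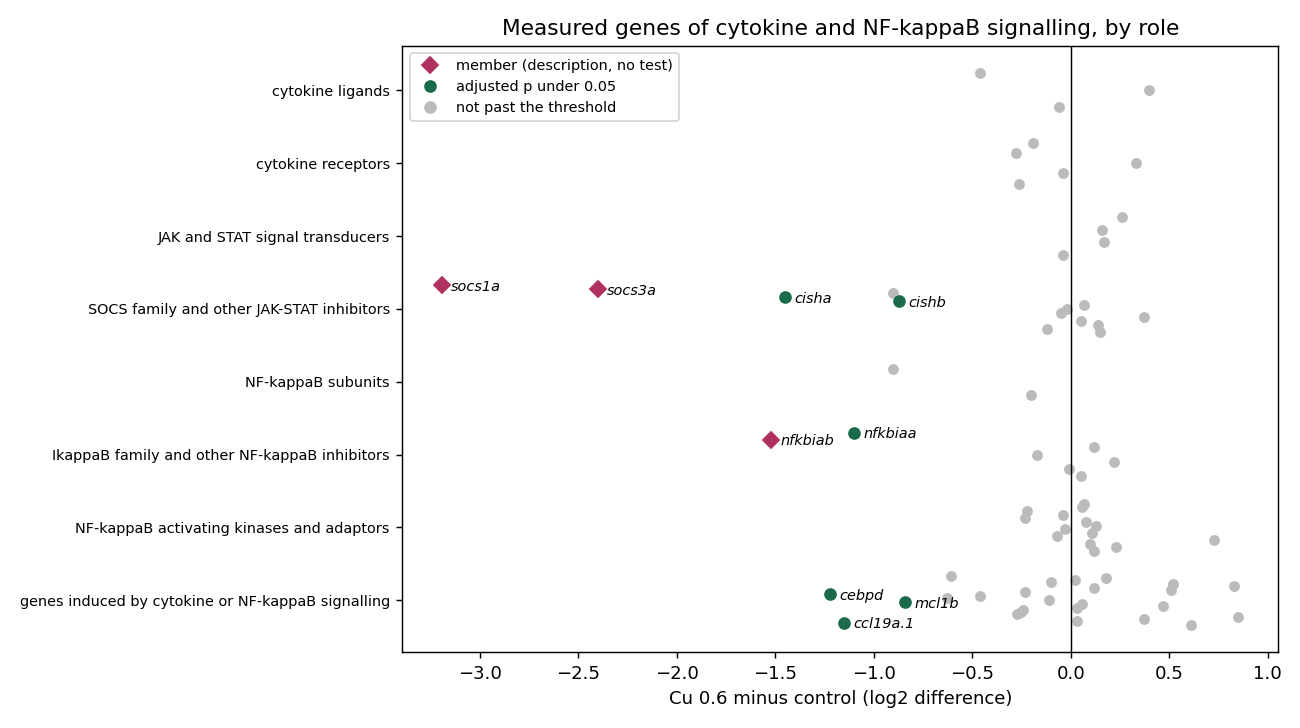
Log2 difference between Cu 0.6 and control (horizontal axis) for each measured gene of cytokine and NF-kappaB signalling, in rows by role. Diamonds are the 3 members (description, no test), dark points the 6 genes past an adjusted p of 0.05, all of them lower, and grey points the other genes.

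Markers of cell types were read in the same comparisons, against 1.62% of all probe sets called at Cu 0.6 and 4.35% for averaged Cu 0.25. The 3 measured markers of olfactory sensory neurons all fell at Cu 0.6 and for averaged Cu 0.25, and their summed level ran from 12.18 to 12.60 in controls, 10.67 to 11.26 at Cu 0.25 and 10.22 to 10.34 at Cu 0.6. Of 11 macrophage and microglia genes, 3 rose and 0 fell for averaged Cu 0.25, while 0 were called at Cu 0.6 (3 higher and 2 lower at an unadjusted p under 0.05). Their summed level was 15.27 to 15.31 in controls, 15.06 to 15.31 at Cu 0.25 and 15.01 to 15.14 at Cu 0.6. It was 14.65 to 15.33 with CPF alone and 14.94 to 15.28 in the mixtures. The defining marker csf1ra did not pass the filter. None of 6 neutrophil genes was called by limma at Cu 0.6 or for averaged Cu 0.25 (0 at an unadjusted p under 0.05 in either), with a summed level of 11.67 to 11.81 in controls and 11.48 to 11.79 at Cu 0.6, and mpx did not pass the filter. The 3 lymphocyte markers on the array did not pass it either.

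For averaged Cu 0.25, 2 of 7 liver genes fell (28.6%) and 1 of 16 epithelial genes rose (6.25%, near the background), and limma called none of 5 pancreas, 6 erythrocyte or 13 bulb and telencephalon genes (1 pancreas and 1 bulb or telencephalon gene lower at an unadjusted p under 0.05). On the side without copper were CPF 0.25 replicates 1 and 3 and CPF 0.6 replicate 2, with summed liver levels of 11.14, 10.41 and 12.11. With copper, the liver- or pancreas-rich Cu 0.25 replicate 3 read 10.16. At Cu 0.6 limma called 0 liver genes (1 lower at an unadjusted p under 0.05). The part of these arrays in the liver calls was not tested. The part of these markers in the levels of socs1a, socs3a and nfkbiab was not tested.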

How the data were processed

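Per the submitters' processing notes, the deposited values were made with GCRMA (no version given). The deposited table does not name its scale, which was taken as log2 because values run from 1.021 to 15.73. Of 15617 probe sets, 115 controls were left out, and the 10531 above 4 in at least 3 arrays were kept. The platform annotation gave a single symbol to 10795 probe sets, several to 135 and none used here to 4572, and the probe set with the highest mean stood for a gene. The 10 groups follow the treatment labels, and replicates, numbered in accession order, were never paired. A single model of the 30 arrays, holding group and title batch as fixed terms, was run in limma 3.58.1 under R 4.3.3 and left 18 residual degrees of freedom. What the batch in the titles stands for was not given in the sources used here. Moderated p-values were adjusted by Benjamini-Hochberg across all 10531 kept probe sets (threshold 0.05). Precision is limited by 3 arrays a group. Levels are compared within a gene only.

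The members, pathway lists and marker lists were chosen with earlier results of these data known. Genes named were the members, measured SOCS, CISH and IkappaB genes, up to 3 genes called per other list in a copper comparison (by the p for averaged copper), and the 5 genes most like each member. Also named, with their values seen, were stat3, nfkb2, cxcl12a, cxcl12b, tnfsf10l, mmp9, junbb, s100z, ompb and further genes beyond 3 in a list. Alternatives were quantile normalization or median centring of the arrays, array weights, a trended robust prior, a filter at 6 or none, the batch left out of the model or taken as a random block, title batch 3 removed, batches 1 and 2 alone, the second socs1a probe set, no liver- or pancreas-rich arrays, and each array left out. The fits were tested on simulated data. No sequences are printed.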

Additional observations from a re-analysis of the deposited data

How the results depend on the processing

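The copper differences of the 3 members were below 0 under every alternative, except socs1a for copper added to CPF 0.1. The one copper difference against control or averaged over CPF that moved by more than the spread between replicates was socs3a at Cu 0.6, −1.94 without title batch 3. With 1 array left out, averaged copper ran from −1.03 to −0.84 for socs1a, −1.0 to −0.80 for socs3a and −0.81 to −0.62 for nfkbiab. The socs1a difference for copper added to CPF 0.1 ran from −0.66 to 0.05. No CPF test given for a member passed under any alternative.

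Differences near 0 changed sign, and the cause was not tested. With 1 array left out, socs1a ran from −0.61 to 0.08 at CPF 0.1, −0.29 to 0.44 at CPF 0.25, −0.36 to 0.21 at CPF 0.6 and −0.23 to 0.04 for CPF averaged. For socs3a the ranges were −0.08 to 0.41, 0.00 to 0.32, −0.01 to 0.28 and −0.01 to 0.28, and for nfkbiab at CPF 0.25 −0.28 to 0.01. At CPF 0.25 socs1a was −0.01 with quantile normalization, −0.73 without the 4 liver- or pancreas-rich arrays and −0.05 by its second probe set. At CPF 0.6 it was 0.03 with no batch term, 0.03 with a random block and 0.02 without title batch 3. For CPF averaged it was 0.03 with array weights. Without the 4 arrays socs3a was −0.20 at CPF 0.25, −0.04 at CPF 0.6 and −0.04 for CPF averaged.

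The count of pathway genes called ran from 4 to 7 for averaged copper and from 0 to 6 for Cu 0.6 with 1 array left out. For averaged copper it was 3 without title batch 3 and 2 without the 4 arrays, and for Cu 0.6 it was 0 without title batch 3. Those fits have fewer arrays. No paired analysis was possible because the replicate numbers only follow accession order, while the title batch, which places 1 array of control and of Cu 0.25 in each batch, is already a fixed term of the model.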
